A study of Rattus norvegicus with 8 samples.

Results

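Acute phase proteins are secreted liver proteins whose synthesis shifts in inflammation, and STAT3 is the transcription factor through which interleukin 6 drives much of that shift. A group of 10 genes was followed in rat liver: 8 that encode secreted proteins (Crp, Hp, Hpx, Orm1, Saa4, Apcs, Lbp and Lcn2), Stat3 itself, and Socs3, the feedback inhibitor that STAT3 induces. They are defined by gene symbol, in a choice made with earlier results of these data known, and all 10 were present among the 15115 genes of the authors' deposited table. The animals were wild-type male F344 rats given a choline-deficient, amino acid-defined diet (CDAA), which brings on steatosis and liver cancer. In the group named CDAA_PTS, pterostilbene was mixed into that feed at 1.34 g per kg, and those rats had also eaten the compound in a choline-sufficient feed for 3 weeks beforehand; the CDAA group had that feed without it. Each group gave 4 libraries of whole-liver RNA from rats labelled as 1 year old, out of 6 rats per group in a study of 60 weeks. Pieces taken in the study could be tumour, nodule or normal liver, and the labels do not say which kind entered each library. Expression values and tests below are the authors' own, 1 per group or per comparison, or were computed from those, so levels of single rats were not analysed here. The depth of each library is unknown; the ratio of mean normalized count to mean CPM puts the typical depth near 13900000 counted reads.

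In the acute phase response, macrophages and other cells release interleukin 6, interleukin 1 and TNF. Interleukin 6 binds its receptor and gp130 (gene Il6st) on hepatocytes, Janus kinases phosphorylate STAT3, and STAT3 enters the nucleus and activates genes with STAT sites, Socs3 among them; interleukin 1 acts through NF-kB and C/EBP factors. Transcript levels of Stat3 do not measure this phosphorylation. Species differ in which proteins respond: in rats alpha-2-macroglobulin (A2m) and alpha-1-acid glycoprotein (Orm1) rise strongly, whereas C-reactive protein is abundant in rat plasma without inflammation and rises little.

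RefSeq windows on rat build GRCr8, from 250 bases before to 50 after the annotated start, were matched by symbol for 7 of the 10 genes; Hp, Saa4 and Lbp had no entry. The windows of Crp and Apcs are shown because these were the called members, and that of Orm1 because it rises strongly in the acute phase of rats. They lie at chr13:87693812-87694111 on the plus strand (Crp), chr13:87906459-87906758 on the minus strand (Apcs) and chr5:81788259-81788558 on the plus strand (Orm1). Capitals mark every match, on either strand, to 5 motifs: TTCNNNGAA for STAT factors, CTGGGAA for the interleukin 6 response element, TTGCNNAA for C/EBP, GGGNNTTCC for NF-kB and TATAAA.
Crp: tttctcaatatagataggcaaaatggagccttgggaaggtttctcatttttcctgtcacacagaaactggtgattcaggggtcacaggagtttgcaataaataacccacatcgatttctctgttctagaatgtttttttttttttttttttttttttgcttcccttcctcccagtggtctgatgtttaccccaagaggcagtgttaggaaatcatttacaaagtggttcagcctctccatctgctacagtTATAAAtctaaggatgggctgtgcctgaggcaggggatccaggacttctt
Apcs: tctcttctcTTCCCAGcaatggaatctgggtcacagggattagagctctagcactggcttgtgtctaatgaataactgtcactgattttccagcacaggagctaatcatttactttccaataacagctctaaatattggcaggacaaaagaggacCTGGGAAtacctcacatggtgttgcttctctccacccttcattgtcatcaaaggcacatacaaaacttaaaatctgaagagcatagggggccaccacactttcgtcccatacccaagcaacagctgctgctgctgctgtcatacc
Orm1: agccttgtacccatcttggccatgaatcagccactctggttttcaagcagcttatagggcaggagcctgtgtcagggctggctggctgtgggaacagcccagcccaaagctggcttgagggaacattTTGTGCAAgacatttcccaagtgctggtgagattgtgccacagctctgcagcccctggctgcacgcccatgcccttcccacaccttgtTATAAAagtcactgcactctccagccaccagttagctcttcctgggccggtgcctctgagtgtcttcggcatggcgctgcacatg
The windows differed in what they held. That of Apcs has CTGGGAA starting at -95 and its reverse complement at -241, while that of Crp has none of the 5 motifs except TATAAA, which begins at the annotated start. The Orm1 window has a C/EBP match at -123 and TATAAA at -35. Of the windows not shown, that of Lcn2 has CTGGGAA at -245 and a C/EBP match at -191, that of Hpx has a C/EBP match at -200, and those of Stat3 and Socs3 have no match. Over all 33469 RefSeq windows of this length, 11.3% hold CTGGGAA, 10.6% the C/EBP letters, 14.2% TATAAA, 8.87% the STAT letters and 5.92% the NF-kB letters, and the last pair are in 0 of the 7 windows. The NF-kB search turned on spacing: a form with 3 free bases in place of 2, held by 5.37% of all windows, matched Lcn2 at -242, where it overlaps CTGGGAA, and Orm1 at -160. A match is a description of letters, not a shown binding site.

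With pterostilbene, transcripts of the short pentraxins Crp and Apcs were higher, and no other member passed the test. Pentraxins are ring-shaped plasma proteins that bind damaged cells and microbes; Crp encodes C-reactive protein and Apcs serum amyloid P component. Of the 10 members, 2 rose, 0 fell and 8 did not pass at an edgeR adjusted p under 0.05, the threshold used throughout, where 3.41% of all 15115 genes passed, 1.47% as higher and 1.95% as lower (authors' deposited table). DESeq2 likewise calls 2 members as higher, against 4.46% of the genes it adjusted, and Cuffdiff 2 as higher and 1 as lower, against 5.51% of the genes it tested. At an unadjusted edgeR p under 0.05 the count was 4 of 10, against 14.6% of all genes. Among the 581 genes with a mean of at least 200 CPM (reads scaled to library size), a class that holds both called members, 6.54% passed and 5.16% passed as higher.

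Crp (ENSRNOG00000000053, chromosome 13, 91054973 to 91093713 in rn6) stood at 1579 FPKM in CDAA_PTS against 756 FPKM in CDAA, with a mean of 1181 CPM over all libraries (authors' deposited table). FPKM scales reads to transcript length and library size, so levels of different genes can be set side by side. The edgeR log2 fold change was 1.05, a 2.07-fold higher level, with an adjusted p of 3.1e-07, and the DESeq2 value was 0.92 with an SE of 0.14 and an adjusted p of 2.2e-08 (authors' deposited table). By edgeR p, Crp ranked 26 among all genes and 5 among the 581 abundant ones. Cuffdiff calls it as well, with a log2 ratio of 1.06 and a q of 0.0019, the smallest q that its block of the authors' deposited table holds.

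Apcs (ENSRNOG00000009086, chromosome 13, 91426478 to 91427575 in rn6) was at 284 FPKM in CDAA_PTS against 191 FPKM in CDAA (authors' deposited table). Its edgeR log2 fold change of 0.56 is 1.48-fold, with an adjusted p of 0.0084, and DESeq2 gives 0.51 with an SE of 0.13 and an adjusted p of 0.0038 (authors' deposited table). Apcs ranked 15 by edgeR p among the 581 abundant genes, and Cuffdiff calls it at a q of 0.0049 (authors' deposited table). The 95% intervals made from the DESeq2 values, which are moderated toward 0, were 0.65 to 1.19 for Crp and 0.26 to 0.75 for Apcs. They overlap, and whether the increases differ in size was not tested.

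**Figure D1:**
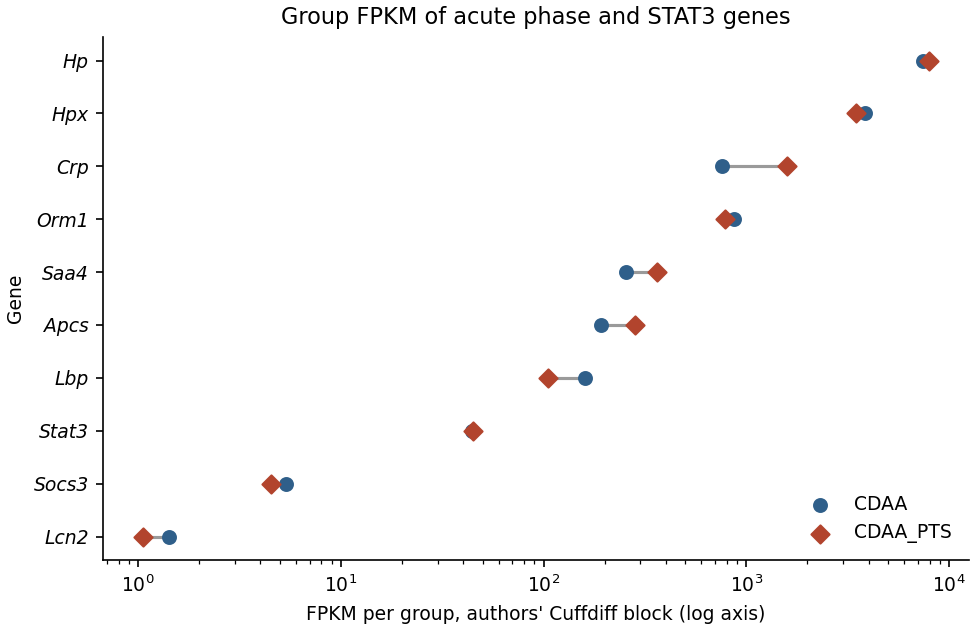
FPKM of the 10 genes in the CDAA group (circles) and the CDAA_PTS group (diamonds), 1 value per group from the authors' Cuffdiff block, on a log axis. Levels run from 1.05 FPKM for Lcn2 to 7986 FPKM for Hp, and the widest gap between the groups is that of Crp, at 756 and 1579 FPKM.

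Crp and Apcs are neighbours in a pentraxin cluster on chromosome 13, with 333 kb between the intervals listed for them (rn6, authors' deposited table). Within 500 kb on either side of the pair, the table holds 15 other genes, of which 0 passed in edgeR and 2 had an unadjusted edgeR p under 0.05. Their median log2 fold change was 0.12. The 1 gene listed between them, an Fc gamma receptor III-like locus (LOC100911825), stood at 0.16 at an adjusted p by edgeR of 0.91 (authors' deposited table). None of the 15 was abundant in these livers, since the highest of them had a mean of 63.8 CPM and the median 4.93 CPM. No other gene of the table overlaps the interval given for any of the 10 members. Dcaf8 and Pea15 are listed with the same interval, so positions here are those of listed intervals and may not be gene ends.

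**Figure D2:**
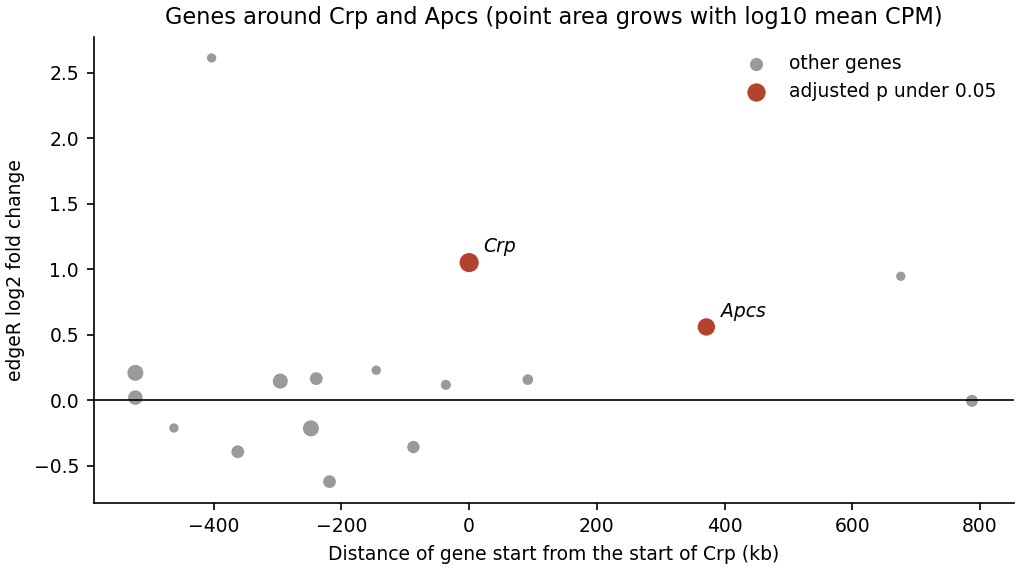
The edgeR log2 fold change of the 17 genes within 500 kb of the interval from Crp to Apcs. The horizontal axis is the distance in kb of the start of each gene's listed interval from that of Crp. Point area grows with the log10 of mean CPM; Crp at 1.05 and Apcs at 0.56 are the called genes, and the highest point, 2.61, is a gene with few reads that did not pass.

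The other secreted carriers and scavengers did not pass, although Saa4 leaned the same way as the pentraxins. Saa4 encodes serum amyloid A4, an apolipoprotein of high-density lipoprotein that is made constitutively. It stood at 362 FPKM in CDAA_PTS against 256 FPKM in CDAA, 0.48 on the log2 scale by edgeR, where the unadjusted p is 0.015 and the adjusted p 0.19 (authors' deposited table). The DESeq2 interval for Saa4, 0.08 to 0.71, lies above 0 before adjustment, while its adjusted p in DESeq2 is 0.16 and its Cuffdiff q 0.063 (authors' deposited table). Serum amyloid A genes are alike in sequence and clustered, so reads may be shared among them.

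Haptoglobin and hemopexin, which bind free hemoglobin and free heme, were the most highly expressed of the 10. Hp was at 7986 FPKM in CDAA_PTS against 7437 FPKM in CDAA, and Hpx at 3464 and 3826 FPKM (authors' deposited table). Together they held 14146 of the 17415 mean CPM summed over the 10 genes, which is 1.73% of all mean CPM. The groups were close for both: the edgeR log2 fold change was 0.10 for Hp (adjusted p 0.89) and -0.15 for Hpx (adjusted p 0.80) in the authors' deposited table. DESeq2 intervals ran from -0.18 to 0.35 for Hp and from -0.42 to 0.16 for Hpx. Both hold 0, which does not show the groups to be alike.

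Orm1, which encodes alpha-1-acid glycoprotein, a drug-binding plasma protein, stood at 782 FPKM in CDAA_PTS against 865 FPKM in CDAA (authors' deposited table). Its log2 fold change of -0.16 did not pass (adjusted p by edgeR 0.83 in the authors' deposited table), and the DESeq2 interval was -0.46 to 0.20. In level, Orm1 was above Crp in the CDAA group and below it in the CDAA_PTS group, on the FPKM scale; with no spread between rats, that order was not tested.

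Lbp and Lcn2, whose proteins handle bacterial molecules, had lower group values with pterostilbene, and neither passed in edgeR. Crp and Apcs, whose proteins also bind microbes, had higher values. Lbp encodes lipopolysaccharide-binding protein, which hands bacterial endotoxin to CD14. It stood at 105 FPKM in CDAA_PTS against 159 FPKM in CDAA, -0.61 on the log2 scale by edgeR, adjusted p 0.085, against a DESeq2 adjusted p of 0.065 and a Cuffdiff q of 0.0099 (authors' deposited table). The call for Lbp therefore depends on the tool, as Cuffdiff passes it and the count-based tools do not. Of the 8 members that were not called in edgeR, Lbp had the smallest adjusted p and Saa4 the next.

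Lcn2 encodes lipocalin 2, which withholds iron from bacteria by binding their siderophores and is made by neutrophils and by hepatocytes in inflammation. It had the lowest level of the 10, at 1.05 FPKM in CDAA_PTS against 1.42 FPKM in CDAA, a mean of 1.33 CPM (authors' deposited table). The edgeR log2 fold change was -0.45 with an adjusted p of 0.68 (authors' deposited table). The DESeq2 interval was -0.63 to 0.20, around a moderated value of -0.22 with an SE of 0.21. At a mean normalized count of 16.4, that interval does not bound the unmoderated change. Neutrophil markers were also scarce: 6 of 11 were measured, none above 2.26 CPM, and 0 were called in edgeR, DESeq2 or Cuffdiff. Cuffdiff tested only S100a8 and S100a9 of these, and DESeq2 gave no adjusted p for Mmp8 and Cxcr2. Of the 6, 5 were below 0 and the median log2 fold change was -0.18, with S100a9 and Csf3r at 0.11 and -0.66 (adjusted p by edgeR 0.96 and 0.39 in the authors' deposited table). Mmp9, the gelatinase stored in neutrophil granules, stood at -1.07 with a mean of 1.53 CPM, an unadjusted p of 0.0019 and an adjusted p by edgeR of 0.053 (authors' deposited table); adjusted over the genes with a mean of at least 1 CPM, its p was 0.048, and it was called lower. The summed FPKM of the 6 was 11.5 in CDAA_PTS and 12.3 in CDAA, and their part in the value of Lcn2 was not tested. In bulk tissue, fewer cells of a type and less RNA per cell cannot be told apart.

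Stat3 mRNA was level between the groups. It stood at 44.8 FPKM in CDAA_PTS against 44.1 FPKM in CDAA, with a mean of 218 CPM, and edgeR gives -0.00 on the log2 scale (adjusted p 1, authors' deposited table). The DESeq2 interval was -0.29 to 0.28, which bounds a change on that moderated scale but does not show the groups to be alike. Socs3, whose protein shuts off gp130 and JAK signalling, was at 4.50 FPKM in CDAA_PTS against 5.37 FPKM in CDAA. That is -0.31 on the log2 scale (adjusted p by edgeR 0.78 in the authors' deposited table), and the moderated DESeq2 interval was -0.59 to 0.23. Among the 10, Stat3, Socs3 and Lcn2 had the lowest FPKM in both groups.

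**Figure D3:**
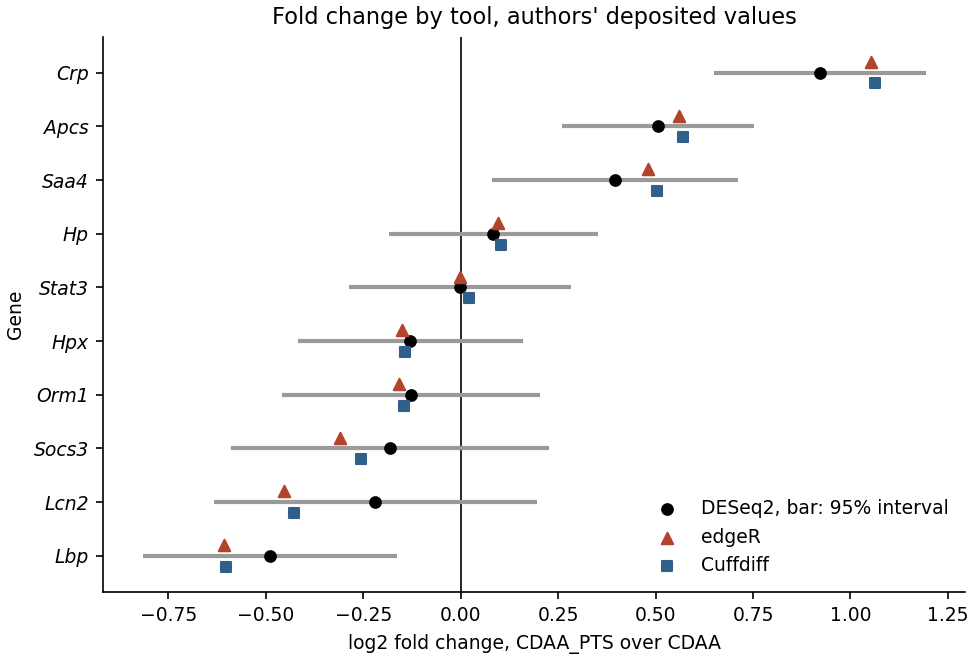
Log2 fold change of CDAA_PTS over CDAA for the 10 genes from the authors' edgeR (triangles), DESeq2 (circles) and Cuffdiff (squares) blocks. Bars are 95% intervals from the DESeq2 value, which is moderated toward 0, and its SE. Crp, Apcs and Saa4 have bars wholly above 0 and Lbp wholly below it, before adjustment over genes, and after it Crp and Apcs pass in every block and Lbp in Cuffdiff alone.

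The DESeq2 SE belongs to a log2 fold change moderated toward 0. It had a median of 0.11 and a maximum of 0.21 over the 2000 genes with a mean normalized count of at least 1000 (authors' deposited table). The 8 members at that count, all but Socs3 and Lcn2, lay above this median, from 0.13 for Apcs to 0.17 for Orm1 and Lbp, at percentiles 61.5 to 88.8 of those genes, which were not matched to the members in abundance. At such counts the SE reflects variation between libraries more than counting error; which rats carry it cannot be read from a table with no values per rat. At like mean abundance the SE varied: 0.07 for Jak1 (322 CPM), 0.15 for Creb3l3 (343 CPM) and 0.20 for Fgl1 (340 CPM) in the authors' deposited table.

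Other acute phase genes were not called in either direction. Of 21 further genes whose products rise in the acute phase, 19 were measured, 0 rose and 0 fell in edgeR, and 2 had an unadjusted p under 0.05; DESeq2 and Cuffdiff also call 0. Their median log2 fold change was 0.04, beside 0.01 for all genes. A2m and Serpina3n of that list were not analysed here, so the leading acute phase protein of the rat has no value. C3, the central complement component, was at 2823 FPKM in CDAA_PTS against 2399 FPKM in CDAA, which is 0.23 on the log2 scale (adjusted p by edgeR 0.60 in the authors' deposited table). Serpina1, the main plasma inhibitor of neutrophil elastase, stood at 0.04 (adjusted p by edgeR 0.98 in the authors' deposited table). The fibrinogen chains Fga, Fgb and Fgg, singled out after their values were seen because they are textbook interleukin 6 targets, stood at 0.39, 0.31 and 0.28 (adjusted p by edgeR 0.25, 0.46 and 0.50 in the authors' deposited table).

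Plasma proteins that fall in the acute phase were also not called. Of 10 listed, 9 were measured and 0 passed in edgeR, DESeq2 or Cuffdiff, with 2 at an unadjusted edgeR p under 0.05 and a median log2 fold change of -0.02. Alb, serum albumin, stood at -0.09 and Tf, the iron carrier transferrin, at -0.06 (adjusted p by edgeR 0.90 and 0.94 in the authors' deposited table). Cuffdiff lists Alb at 0 FPKM in both groups of the authors' deposited table although it has the highest mean CPM there, so its FPKM was not used.

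Upstream of STAT3, the interleukin 6 receptor chain and the Janus kinases were not called in edgeR. Of 16 listed cytokines, receptors and kinases, 14 were measured, and Il6 and Il11 were not analysed here; 0 passed, 1 had an unadjusted p under 0.05, and the median was -0.11. Il6st, the shared signalling chain gp130, was at 115 FPKM in CDAA_PTS against 88.9 FPKM in CDAA, which is 0.36 on the log2 scale at an adjusted p by edgeR of 0.11, a DESeq2 adjusted p of 0.048 and a Cuffdiff q of 0.20 (authors' deposited table). Il6r, which gives interleukin 6 its specificity, stood at 0.31 (edgeR adjusted p 0.70), and the kinases Jak1 and Jak2 at -0.09 and -0.13 (adjusted p by edgeR 0.80 and 0.71 in the authors' deposited table). The interleukin 1 and TNF genes, 10 measured of 11 listed with Tnf itself not analysed here, had 0 calls in edgeR and DESeq2 and a median of -0.22. Cuffdiff calls 2 of them lower, Nfkbiz and Nfkbia. At an unadjusted edgeR p under 0.05, 4 were lower, where 14.6% of all genes passed in either direction. Il1r1, the interleukin 1 receptor, and Nfkb1, an NF-kB subunit, stood at 0.06 and -0.25 (adjusted p by edgeR 0.93 and 0.34 in the authors' deposited table).

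Among the 5 other STAT genes measured, Stat5b rose and Stat6 fell, where 3.41% of all genes passed in either direction. Stat5b, through which growth hormone acts on hepatocytes, was at 16.7 FPKM in CDAA_PTS against 12.9 FPKM in CDAA, 0.39 on the log2 scale by edgeR, adjusted p 0.0086 (authors' deposited table). Stat6, which serves interleukin 4 and interleukin 13, was at 19.4 and 25.1 FPKM, which is -0.38 on the log2 scale at an adjusted p by edgeR of 0.029 (authors' deposited table). DESeq2 calls both and Cuffdiff neither, with q values of 0.10 for Stat5b and 0.15 for Stat6 (authors' deposited table). Stat2, which carries interferon signals, stood at -0.07 (adjusted p by edgeR 0.94 in the authors' deposited table). In rn6, Stat5b, Stat5a and Stat3 follow each other on chromosome 10. Their listed intervals leave 9.90 kb between the first pair and 1.35 kb between Stat5a and Stat3. Stat5a stood at 0.31 at an adjusted p by edgeR of 0.22 (authors' deposited table). The log2 fold changes of Stat5b, Stat5a and Stat3 fell in that same order, 0.39, 0.31 and -0.00, and whether they differ was not tested.

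The brakes on JAK-STAT signalling were not called in edgeR. Of the 14 measured STAT3 target genes 4 fell, where 1.95% of all genes passed as lower. Of 14 other SOCS, PIAS and phosphatase genes, all were measured and 0 passed in edgeR, while Cuffdiff calls Socs2 higher and Cish lower. In edgeR 1 had an unadjusted p under 0.05, and 12 were below 0 (median -0.11). Ptpn6 and Pias2, the most abundant of the 14, stood at -0.08 and -0.10 (adjusted p by edgeR 0.83 and 0.71 in the authors' deposited table). The target list had 0 genes that rose in edgeR, 10 that did not pass and a median of -0.24. Of the 14, 4 were above 0, and Cuffdiff calls 2 higher, Fos and Bcl6, and 4 lower. Cebpd, a C/EBP factor induced in the acute phase, went from 4.69 FPKM in CDAA to 1.81 FPKM in CDAA_PTS, which is -1.39 on the log2 scale at an adjusted p by edgeR of 0.0012 (authors' deposited table). Bcl3, a nuclear partner of NF-kB, was at 7.00 FPKM in CDAA against 3.59 FPKM in CDAA_PTS, and fell by 0.97 on the log2 scale (adjusted p by edgeR 0.0017 in the authors' deposited table). Myc and Ccnd1, which drive growth and entry into the cell cycle, fell by 1.16 and 0.64 (adjusted p by edgeR 0.017 and 0.013 in the authors' deposited table). Vegfa, the target with the next highest mean CPM after Ccnd1, stood at 0.04 (adjusted p by edgeR 0.96 in the authors' deposited table). Most of these genes have several inducers besides STAT3, and phosphorylated STAT3 was not measured.

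Of the liver transcription factors that act on acute phase genes, the inducible C/EBP members fell. The list held 8 genes in 9 rows, since Nr3c1 has a pair of rows, and 2 fell, 0 rose and 7 rows did not pass. The share of all genes that passed as lower was 1.95%. Cebpb, first described as the nuclear factor for interleukin 6, was at 12.0 FPKM in CDAA_PTS against 20.0 FPKM in CDAA, which is -0.73 on the log2 scale at an adjusted p by edgeR of 0.00047 (authors' deposited table); Cebpd, above, was the other. Hnf4a and Creb3l3, hepatocyte factors with the highest counts of the list, stood at -0.07 and -0.26 (adjusted p by edgeR 0.90 and 0.53 in the authors' deposited table). The rise of Crp and Apcs stood beside lower Cebpb and Cebpd transcripts in the same comparison.

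Receptors and partners of the member proteins held 2 genes that fell, 0 that rose and 7 that did not pass, of 10 listed. Beside this, 1.95% of all genes passed as lower. Hmox1, the heme-degrading enzyme downstream of haptoglobin and hemopexin uptake, was at 22.1 FPKM in CDAA_PTS against 33.7 FPKM in CDAA (log2 fold change -0.62, adjusted p by edgeR 0.0086 in the authors' deposited table). Slc22a17, described as a receptor for lipocalin 2, was at 6.40 and 8.75 FPKM (log2 fold change -0.46, adjusted p by edgeR 0.048 in the authors' deposited table). Lrp1, the hemopexin receptor, and Fcgr2b, an Fc receptor that binds pentraxins, stood at 0.11 and -0.01 (adjusted p by edgeR 0.79 and 1 in the authors' deposited table).

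**Figure D4:**
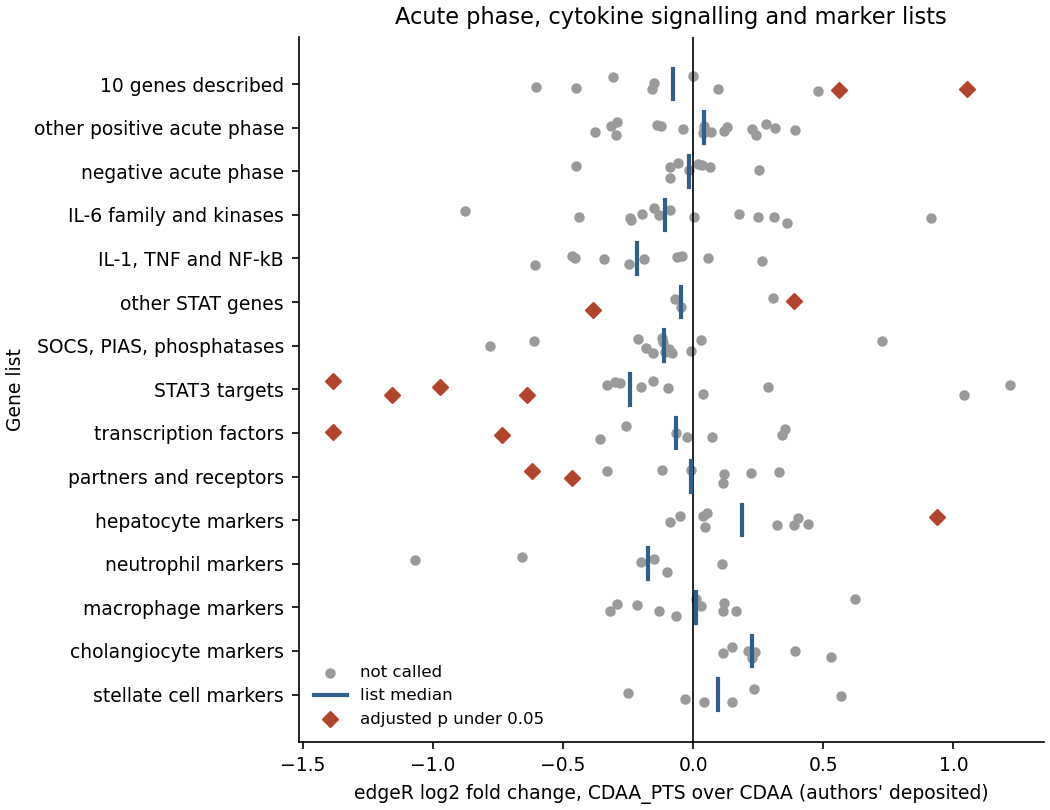
The edgeR log2 fold change of every measured gene of the lists, 1 point per gene, with called genes as diamonds and the list median as a bar. Calls below 0 lie among the STAT3 targets, the transcription factors, the partners and 1 other STAT gene, and the lists of other acute phase proteins have none.

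Cell type markers showed hepatocyte RNA in abundance and few calls, where 3.41% of all genes passed in edgeR. Of 10 hepatocyte markers, 1 rose, Ass1 of the urea cycle, at 0.94 on the log2 scale (edgeR adjusted p 0.00076, authors' deposited table). Alb, at -0.09, and the lipoprotein gene Apob, at 0.04, did not pass (adjusted p by edgeR 0.90 and 0.96 in the authors' deposited table). In this list 8 markers were above 0 and 2 below, and the median was 0.19. Macrophage markers, 11 of 11 measured, had 0 calls in edgeR and a median of 0.01, with the Kupffer cell lectin Clec4f at 0.01 and Mrc1 at 0.11 (adjusted p by edgeR 1 and 0.76 in the authors' deposited table). Their summed FPKM was 296 in CDAA_PTS and 302 in CDAA. The 7 cholangiocyte markers were all above 0 with 0 edgeR calls and a median of 0.23, with Epcam at 0.11 and Cftr at 0.24 (adjusted p by edgeR 0.79 and 0.82 in the authors' deposited table), and their summed FPKM was 89.9 and 76.7. Of 7 stellate cell markers, 6 were measured, 0 passed and the median was 0.09, with Col3a1 at 0.04 and Pdgfrb at 0.23 (adjusted p by edgeR 0.98 and 0.62 in the authors' deposited table). The part of any change in cell makeup in the values of the 10 genes was not tested.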

How the data were processed

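Whole-liver RNA was taken up in Trizol and sequenced from TruSeq libraries, per the labels' protocols. Build rn6 and the tools TopHat2, Cufflinks, FastQC, edgeR and DESeq2 appear in the submitters' processing notes, with no roles. How reads were counted, which models were fitted and whether strand was kept were not stated. The deposited table covers 15115 genes from 8 libraries and has 0 columns with values per library. In the authors' DESeq2 block stand a signal (the mean of counts after division by size factors), log2 fold changes moderated toward 0 with their SE, a Wald score, and raw and adjusted p-values. In the authors' edgeR block stand log2 fold changes, the log2 of mean CPM, and raw and adjusted p-values. In the authors' Cuffdiff block stand 1 FPKM per group, a log2 ratio, a score of opposite sign, p-values and q-values.

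No count model was run here. Calls use the authors' edgeR adjusted p under 0.05 over all genes, with the authors' DESeq2 and Cuffdiff columns as alternatives. The authors' DESeq2 adjusted p was missing for 1956 genes and stayed missing, and 1888 genes were not tested by Cuffdiff. Intervals (95%, normal) are made from the authors' DESeq2 log2 fold change, which is moderated toward 0, and its SE. For genes with few or variable reads they can be narrower than without moderation, so they do not bound the unmoderated change. Benjamini-Hochberg values computed again (pandas 2.3.3, Python 3.11.15) matched the deposited ones, and the routine was tested on simulated data. Rats shared cages in pairs, and any p here carries only the spread that the authors' fits saw. Promoter windows come from RefSeq on GRCr8, and no coordinate was moved between builds. The members, lists, motifs and naming rule were chosen with earlier results of these data known. Named genes are all members and, per list, every called gene, the 2 with the highest mean CPM, and A2m, Il6, Il6r, Il6st, Jak1, Jak2 and Stat5b; others were chosen after their values were seen, Stat5a among them. One gene that the rule names is not reported here. Genes of like pattern are not named, since 1 comparison of 2 groups holds no pattern.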

Additional observations from a re-analysis of the deposited data

How the results depend on the processing

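There were 48 alternative values of the 10 members. Filters of at least 1 CPM or 100 normalized counts reuse the edgeR log2 fold change, so only the adjusted p could move there. The pseudocount values reuse the group FPKM of Cuffdiff. Of the 48, 45 kept their direction and their side of the threshold, or moved by less than 1 DESeq2 SE where no test applied. The exceptions were Lbp, which passed in Cuffdiff (log2 ratio -0.60, q 0.0099), Stat3, whose value near 0 changed sign there (0.021), and Lcn2, at -0.23 on log2 FPKM with a pseudocount of 1; that pseudocount shrinks low values by construction, and the cause of the others was not tested. Members called numbered 2 in edgeR, in DESeq2 and with filters of at least 1 CPM or 100 normalized counts, and 3 in Cuffdiff and at an adjusted p under 0.1, the added one being lower. At that looser threshold 797 of all genes were called, 354 higher and 443 lower, against 516. Over the 139 rows of the 14 other lists, calls ranged from 9 to 15, with 10 in edgeR. For single lists, 61 of 70 alternative counts stayed within 1.5 times the edgeR count and the other 9 moved by 1 or 2 genes. These counts are totals over both directions. For the STAT3 targets, the 6 calls of Cuffdiff are 2 higher and 4 lower, against 4 lower in edgeR. Among the 9 that moved, neither other STAT gene was called by Cuffdiff, and Cebpd drops out where at least 100 normalized counts are required. Centring on the median of all genes shifts each log2 fold change by 0.01 and leaves its p as it is, so it was not counted among these values. No paired analysis was possible because the deposited table holds no values per rat, and for the same reason leaving out single rats was not run. Depth per library is unknown.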

Other observations

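Some genes of the lists passed in Cuffdiff and not in edgeR; they are given here as values chosen after they were seen. Socs2 and Cish, growth hormone-responsive members of the SOCS family, stood at Cuffdiff log2 ratios of 0.72 and -0.82 (q 0.0019 for both, adjusted p by edgeR 0.32 and 0.49 in the authors' deposited table). Nfkbiz, a nuclear inducer of acute phase genes downstream of interleukin 1, and Nfkbia, the inhibitor of NF-kB, stood at -0.71 and -0.46 (Cuffdiff q 0.0019 and 0.023, adjusted p by edgeR 0.24 and 0.13 in the authors' deposited table). Fos and Bcl6 were at 1.19 and 1.05 (Cuffdiff q 0.0019 for both, adjusted p by edgeR 0.25 and 0.47 in the authors' deposited table), and the cholangiocyte marker Sox9 at 0.54 (Cuffdiff q 0.043, adjusted p by edgeR 0.40 in the authors' deposited table).

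Il1rn, the interleukin 1 receptor antagonist that hepatocytes release in the acute phase, was closest to the threshold of the other acute phase genes, at -0.38 (edgeR adjusted p 0.064, DESeq2 adjusted p 0.054, authors' deposited table).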
